A study of Rattus norvegicus with 8 samples.

Results

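The genes described here are 38 listed fibroblast, collagen and extracellular matrix genes, measured in cultured rat dorsal root ganglion cells given 3 treatments. They were chosen by name, as known products of fibroblasts and other matrix-making cells, and each was read from the array probe whose RefSeq accession belongs to it. A probe was used if, in 1 or more of the groups, all its spots were marked well above background on all arrays. Of the 38 genes, 27 were measured in this way, among 12148 gene symbols (23585 probes) tested in all, and where several probes of a gene qualified the brightest stood for it. The other 11 (Col5a2, Col6a1, Col6a3, Col12a1, Col4a2, Lamb1, Lama4, Nid1, Dpt, Fbln2 and Lox) had no probe matched by RefSeq accession. They were therefore not measured, which says nothing of their signal, and are not analysed here.

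Ganglia of newborn Wistar rats (0 to 5 days old, both sexes pooled) were dissociated and kept without serum, in medium holding the antimitotic 5-fluoro-2′-deoxyuridine with uridine. After 2 to 3 days the cells received a human protein in its P61S form, its P61S/R100E form or its wild type form, each at 100 ng/ml for 5 days, and polyadenylated RNA was hybridised to one-colour Agilent arrays. The P61S form carries 1 substitution, the P61S/R100E form carries this and a second substitution. All cultures therefore received a form of the protein, and no culture without it is analysed here. The 8 arrays comprised 3 of P61S, 3 of P61S/R100E and 2 of wild type. P61S arrays 1 and 3 differed by a median of 0.0537 (log2, 1 spot each, 11540 probes), less than the 0.0640 to 0.0875 between 2 spots of one probe within an array, whereas the other 27 pairs of arrays differed by 0.108 to 0.292. The 2 measures are not alike: arrays were compared at the same spot after centring, and spots within an array at different places without it. Among probes with a log2 signal under -4, P61S arrays 1 and 3 differed by 0.128, within the 0.118 to 0.164 between 2 spots. By the median over all 11540 probes they differed by less than 2 spots of one probe, and were counted as 1 sample. The groups therefore held 2 samples of P61S, 3 of P61S/R100E and 2 of wild type. By correlation they were not the closest pair of arrays, at 0.9952 beside 0.9964 for P61S 1 and wild type 1. Whether the replicates are separate cultures or animals is not stated in the labels, so p-values measure only the spread between these samples, which may be technical.

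The extracellular matrix is the protein scaffold that cells secrete around themselves. In the ganglion and its nerves, fibroblasts lay down fibrils of type I and type III collagen decorated with small proteoglycans such as decorin, while Schwann cells and satellite glia are wrapped in a basement membrane of type IV collagen and laminin. Transforming growth factor beta (TGF-beta) is the best known inducer of fibroblast matrix genes, and contractile proteins such as smooth muscle actin mark myofibroblasts and mural cells of vessels. Many of these genes are therefore made by more than 1 cell type, and in RNA from a whole culture fewer matrix-making cells and less matrix RNA per cell cannot be told apart.

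Matrix genes were read at almost the same signal with the 3 treatments. All values below are log2 of the processed signal relative to the 75th percentile of the array, so that 0 is the signal of that percentile and a difference of 1 is 2-fold. Of the 27 measured genes, 26 were well above background on all 8 arrays, and Thbs1 was so on 7. Of the 27 genes, 0 passed an adjusted p of 0.05 in any of the 3 comparisons (limma with Benjamini-Hochberg adjustment over all 23585 probes), and 0% of all tested probes passed in each comparison. At an unadjusted p of 0.05 none of the 27 passed either, beside 582 probes for P61S/R100E versus P61S (0.772% of all tested probes higher and 1.7% lower), 833 for P61S/R100E versus wild type (1.18% and 2.35%) and 259 for P61S versus wild type (0.598% and 0.5%). For the brightest probes, the estimated changes ranged from -0.19 to 0.22, from -0.43 to 0.24 and from -0.35 to 0.06 in these comparisons. Each was under 1.5-fold in size, which some changes of the second probes given below were not. The 95% interval of the change lay within 1.5-fold either way for 21, 18 and 18 of the 27 genes, and within 2-fold for 26, 25 and 25. Thbs1 was outside the 2-fold limit in each comparison, and Tnc in both comparisons with wild type. The calls over all probes depended on single wild type arrays: without wild type 1, 94 probes passed for P61S/R100E versus wild type and 70 for P61S versus wild type, and without wild type 2, 7 passed in each, but no listed matrix gene was among them.

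**Figure D1:**
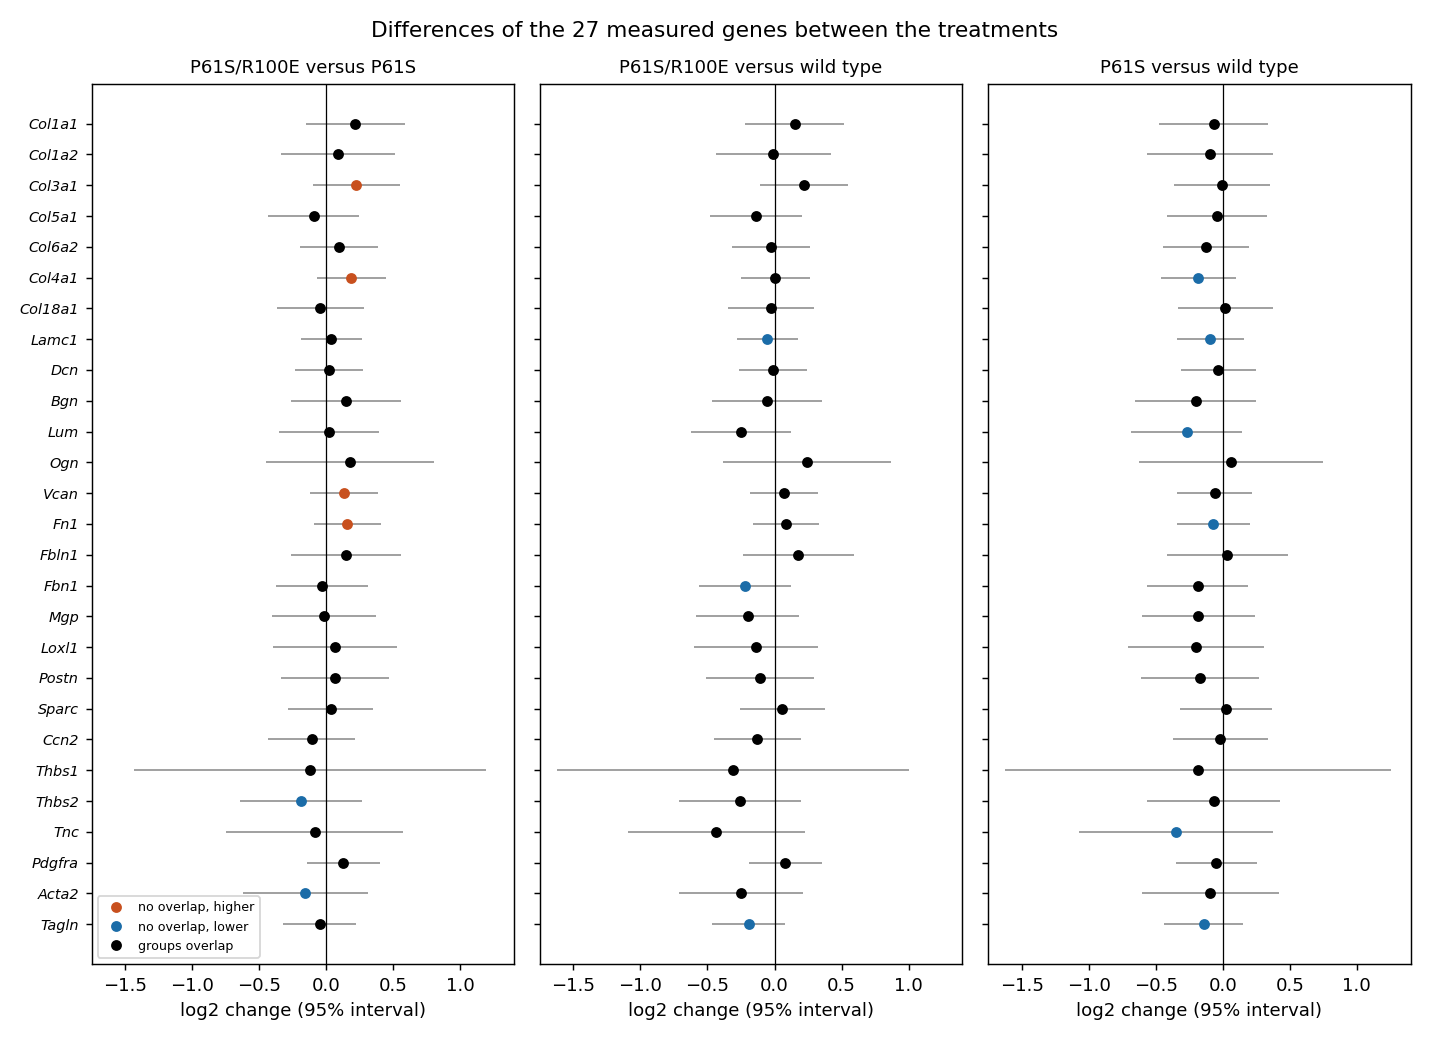
Differences of the 27 measured matrix genes between treatments. Each point is the log2 change and each line its 95% interval from the limma fit; every interval crosses 0, and the widest are those of Thbs1 and Tnc.

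The arrays were alike in depth of signal but not equal. Their 75th percentile signals ranged from 3267 on wild type 2 to 5269 on P61S/R100E 2, 78.7% to 88.8% of the spots were well above background, and no spot was saturated. Wild type 2 stood apart from the rest: its correlations with the other arrays were 0.983 to 0.989, beside 0.990 to 0.996 for pairs without it. This array was above the median of the other samples by a median of 0.14 over the 27 matrix genes and by 0.12 over all tested probes. It was the highest sample for 12 of the 27 genes and for 38.1% of all probes. For the 19 genes given below with every array's value, the changes against wild type are also given without it where leaving it out turned the sign.

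The fibrillar collagens form the tension-bearing fibres of connective tissue, and 4 of the 5 listed were measured. Col1a1, which encodes the alpha-1 chain of type I collagen, read 4.72 and 4.77 on P61S arrays 1 and 3 and 5.01 on array 2, then 5.27, 4.90 and 5.11 with P61S/R100E, and 4.98 and 4.91 with wild type. The P61S/R100E mean was 5.09 ± 0.19 (SD, n = 3) and the P61S mean 4.88 ± 0.18 (SD, n = 2), but the groups overlapped, since P61S/R100E 2 lay below P61S 2. The change was 0.22 (95% interval -0.15 to 0.59, adjusted p = 1.00 in limma). Col1a2, the partner chain in type I collagen, read 5.29 and 5.38 on P61S arrays 1 and 3, 5.54 on array 2, 5.67, 5.28 and 5.63 with P61S/R100E and 5.38 and 5.69 with wild type. The ranges of the 3 groups overlapped, and the change between P61S/R100E and P61S was 0.09. Against wild type Col1a2 gave -0.01 for P61S/R100E and -0.10 for P61S, and without wild type 2 these were 0.15 and 0.06. Col3a1, whose type III collagen mixes into the same fibrils, was even across the P61S arrays, at 5.27 and 5.31 on arrays 1 and 3 and 5.31 on array 2. With P61S/R100E it read 5.64, 5.39 and 5.54, and with wild type 5.44 and 5.16. All P61S/R100E samples lay above all P61S samples, at 5.52 ± 0.12 (SD, n = 3) against 5.30 ± 0.01 (SD, n = 2), a change of 0.22 (95% interval -0.10 to 0.55) that did not pass the test (limma adjusted p = 1.00). Against wild type the estimate was also 0.22, and the groups overlapped because wild type 1 was above P61S/R100E 2. Col5a1, a type V chain that starts fibril assembly, ranged over samples from 1.21 to 1.60, and its estimates were -0.09, -0.14 and -0.04 in the 3 comparisons.

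**Figure D2:**
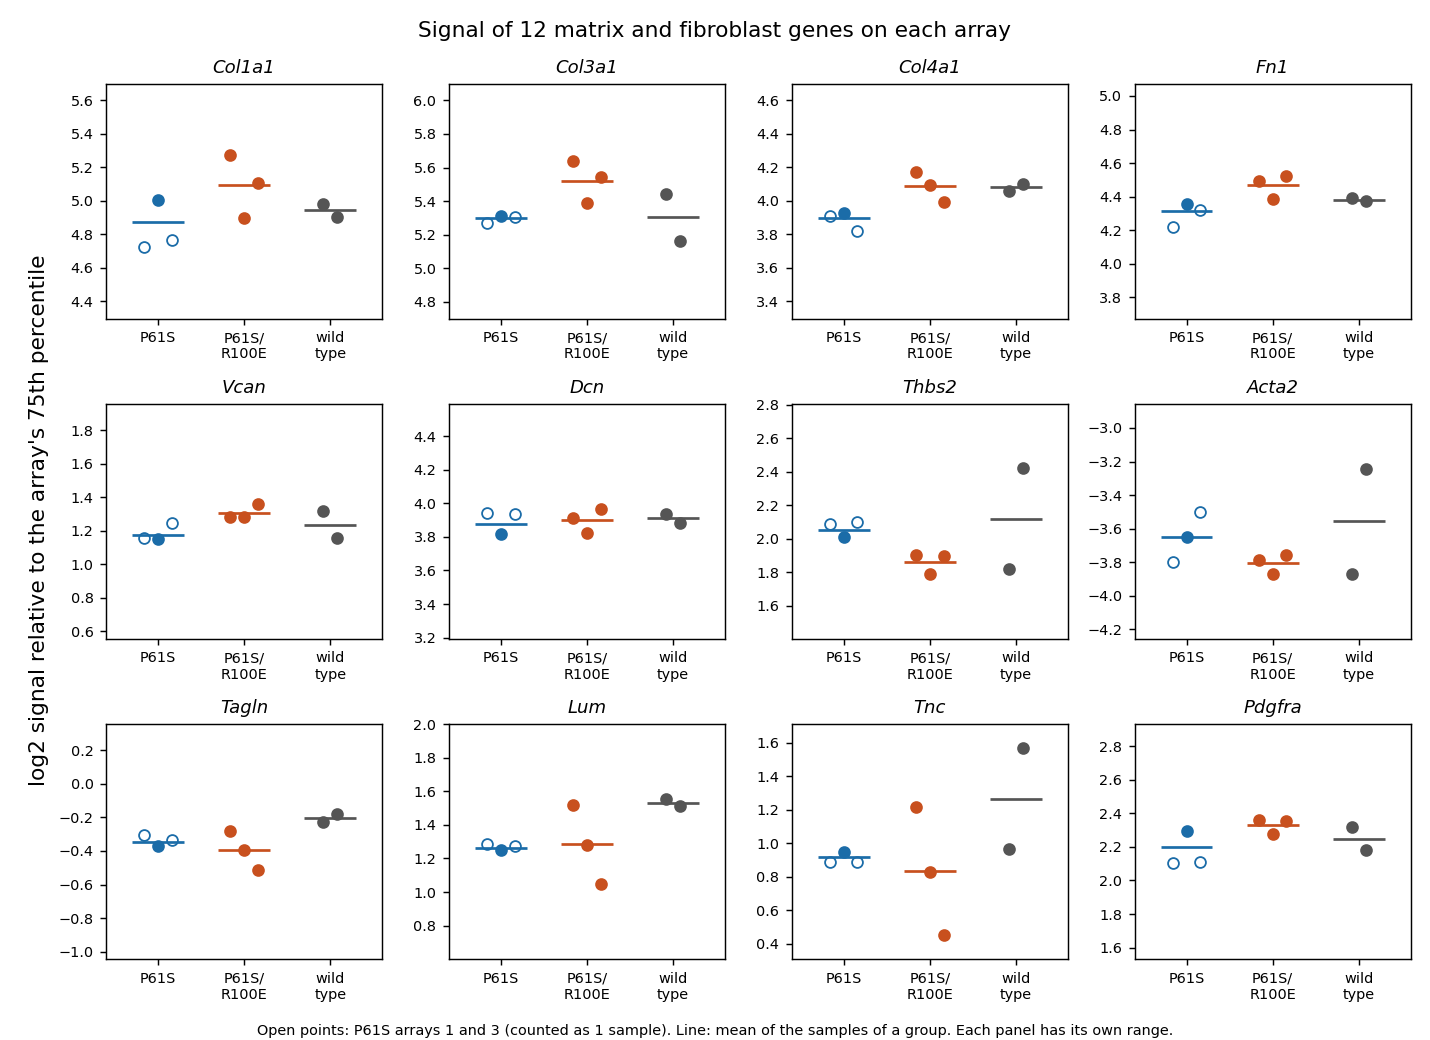
Signal of 12 matrix and fibroblast genes on each array, as log2 relative to the 75th percentile of the array; points are arrays, open points the 2 P61S arrays counted as 1 sample, and lines the group means. Col3a1, Col4a1, Fn1 and Vcan have all P61S/R100E points above the P61S samples, and Thbs2, Acta2 and Tnc have a wide gap between the 2 wild type arrays.

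Col6a2, a chain of the beaded microfibrils of type VI collagen and the only measured member of that group, ranged from 3.59 to 3.85 over the 7 samples, with estimates of 0.10, -0.03 and -0.12. In the basement membrane group 3 of 7 genes were measured. Col4a1, the main type IV collagen chain, read 3.91 and 3.82 on P61S arrays 1 and 3 and 3.93 on array 2, against 4.17, 4.09 and 3.99 with P61S/R100E and 4.06 and 4.10 with wild type. The P61S arrays were the lowest of all 8, by 0.19 on average against P61S/R100E (95% interval -0.07 to 0.44) and by 0.18 against wild type (change -0.18, interval -0.46 to 0.10), and neither difference passed (limma adjusted p = 1.00 for both). Between P61S/R100E and wild type Col4a1 differed by 0.01. Lamc1, the laminin gamma-1 chain, had the smallest spread of the 27 genes (residual SD 0.0239), with 3.93, 3.86 and 3.94 on P61S arrays 1, 3 and 2, 3.96, 3.97 and 3.94 with P61S/R100E and 4.02 and 3.999 with wild type. Both wild type arrays were above all others, but by no more than 0.09 on average, and the interval against P61S ran from -0.34 to 0.16. The Lamc1 probe had 10 spots an array, as had those of Dcn, Ccn2 and Pdgfra, and the other brightest probes had 2. The spreads given here do not take the number of spots into account. Col18a1, the source of endostatin, gave estimates of -0.05, -0.03 and 0.02.

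Promoter sequences are shown for Col4a1 and Vcan, 2 of the 4 genes whose P61S/R100E samples all lay above the P61S samples, and for Acta2, 1 of the 2 genes that lay below. They are the 250 bases before the RefSeq start of the gene on the GRCr8 assembly, 5′ to 3′ on the strand of the gene, at chr16:84885347-84885596 (plus strand), chr2:22595956-22596205 (minus strand) and chr1:241172504-241172753 (minus strand). Capitals mark matches, on either strand, to the letters CCAAT (read as ATTGG on the other strand) or GGGCGG (read as CCGCCC), and TATAAA was also searched.
Col4a1: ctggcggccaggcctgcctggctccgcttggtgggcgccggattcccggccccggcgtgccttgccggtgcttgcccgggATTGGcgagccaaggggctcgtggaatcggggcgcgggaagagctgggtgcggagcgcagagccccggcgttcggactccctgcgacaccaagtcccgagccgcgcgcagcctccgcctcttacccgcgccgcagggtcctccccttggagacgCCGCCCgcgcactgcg
Vcan: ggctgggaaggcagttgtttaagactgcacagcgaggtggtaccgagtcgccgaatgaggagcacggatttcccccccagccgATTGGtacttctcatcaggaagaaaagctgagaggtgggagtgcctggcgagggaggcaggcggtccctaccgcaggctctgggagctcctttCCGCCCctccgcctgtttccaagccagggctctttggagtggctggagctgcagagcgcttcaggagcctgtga
Acta2: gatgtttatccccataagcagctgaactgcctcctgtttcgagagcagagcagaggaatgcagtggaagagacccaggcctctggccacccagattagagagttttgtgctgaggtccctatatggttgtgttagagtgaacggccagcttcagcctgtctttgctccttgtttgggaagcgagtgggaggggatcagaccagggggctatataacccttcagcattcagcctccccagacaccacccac
The Col4a1 and Vcan windows each held 1 CCAAT and 1 GGGCGG match, and the Acta2 window held none of the 3 motifs. Over 27457 promoter windows of this length, 34.3% held CCAAT, 32.4% GGGCGG and 13.1% TATAAA. Of the 17 measured matrix genes with an entry, 6, 8 and 5 held them. These matches describe the letters in the windows and are not binding sites.

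Proteoglycans carry long sugar chains and tune fibril thickness and hydration, and 5 of the 6 genes in this group were measured. Dcn, which encodes decorin and marks fibroblasts, was among the steadiest: 3.94, 3.94 and 3.82 on P61S arrays 1, 3 and 2, 3.91, 3.83 and 3.97 with P61S/R100E and 3.94 and 3.89 with wild type. Its 3 estimates were 0.02, -0.01 and -0.03, and the 95% interval for P61S versus wild type ran from -0.31 to 0.25. Vcan, the large hyaluronan-binding versican, read 1.16, 1.25 and 1.15 on P61S arrays 1, 3 and 2, 1.28, 1.28 and 1.36 with P61S/R100E and 1.32 and 1.16 with wild type. The P61S/R100E samples lay above both P61S samples by 0.13 on average (interval -0.12 to 0.39, limma adjusted p = 1.00), and the change against wild type was 0.07, or -0.01 without wild type 2. Lum, lumican of fibroblasts, read 1.28, 1.27 and 1.25 on P61S arrays 1, 3 and 2 and 1.55 and 1.51 with wild type, so that both wild type samples were above both P61S samples. The change was -0.27 (interval -0.68 to 0.14, limma adjusted p = 1.00). With P61S/R100E it read 1.52, 1.28 and 1.05, a spread wider than the gap between the other groups. Bgn, biglycan, spanned 5.12 to 5.60 over samples with overlapping groups, and its estimates were 0.14, -0.06 and -0.20. Ogn, osteoglycin, had the third largest spread (residual SD 0.325): it read -3.04, -3.07 and -3.004 on P61S arrays 1, 3 and 2, -3.25, -2.89 and -2.42 with P61S/R100E and -2.89 and -3.29 with wild type. Its highest value was on P61S/R100E 3, and the change of P61S against wild type was 0.06, or -0.14 without wild type 2.

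Among the glycoproteins of fibres 4 of 5 genes were measured. Fn1, fibronectin, to which cells attach through integrins, read 4.22, 4.32 and 4.35 on P61S arrays 1, 3 and 2, 4.50, 4.38 and 4.53 with P61S/R100E and 4.39 and 4.37 with wild type. The P61S samples were the lowest, by 0.16 against P61S/R100E (interval -0.09 to 0.40, limma adjusted p = 1.00), and the change against wild type was -0.07. Fbn1, fibrillin-1 of elastic microfibrils, read -0.08, -0.00 and -0.31 on P61S arrays 1, 3 and 2, -0.31, -0.12 and -0.20 with P61S/R100E and -0.12 and 0.14 with wild type. The gap between the nearest P61S/R100E and wild type samples was within rounding, so the lack of overlap there (change -0.22, limma adjusted p = 0.859) is narrow, and without wild type 2 the change was -0.09. Fbln1, fibulin-1, gave 0.15, 0.18 and 0.03, and Mgp, matrix Gla protein, which restrains calcification, gave -0.02, -0.20 and -0.18. Loxl1, the only measured crosslinking enzyme, gave 0.06, -0.14 and -0.20, and its highest value, 1.57, was on wild type 2 beside 1.00 on wild type 1.

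Matricellular proteins signal to cells rather than bear load, and all 6 were measured. Postn, periostin, read 1.32, 1.29 and 1.09 on P61S arrays 1, 3 and 2, 1.48, 1.25 and 1.05 with P61S/R100E and 1.26 and 1.48 with wild type, and the groups overlapped. Sparc, a collagen-binding glycoprotein, gave changes of 0.03, 0.06 and 0.02. Ccn2, a connective tissue growth factor and a standard TGF-beta and YAP target, read -0.39, -0.39 and -0.28 on P61S arrays 1, 3 and 2, -0.37, -0.35 and -0.61 with P61S/R100E and -0.22 and -0.42 with wild type. None of its estimates exceeded 0.13 in size. Thbs2, thrombospondin-2, read 2.09, 2.10 and 2.01 on P61S arrays 1, 3 and 2 and 1.91, 1.79 and 1.90 with P61S/R100E. All P61S/R100E samples were below the P61S samples, with a change of -0.19 (interval -0.64 to 0.27, limma adjusted p = 1.00). The 2 wild type arrays read 1.82 and 2.42, the first within the range of P61S/R100E and the second above all other arrays. Without wild type 2 the change of P61S/R100E against wild type was 0.05 in place of -0.26, and that of P61S was 0.23 in place of -0.07. Tnc, tenascin-C, which rises in injured and developing nerve, had the largest estimates in size of the 27 genes in both comparisons with wild type. Between P61S/R100E and P61S its change was -0.08. It read 0.89, 0.89 and 0.95 on P61S arrays 1, 3 and 2, 1.22, 0.83 and 0.45 with P61S/R100E and 0.96 and 1.57 with wild type. The changes against wild type were -0.43 for P61S/R100E (interval -1.09 to 0.23, limma adjusted p = 0.859) and -0.35 for P61S (interval -1.07 to 0.37, limma adjusted p = 1.00), and without wild type 2 they were -0.13 and -0.05. Thbs1, thrombospondin-1, an activator of latent TGF-beta, had a probe that was not well above background on 1 array, and read -6.74, -6.94 and -7.24 on P61S arrays 1, 3 and 2, -6.95, -7.77 and -6.77 with P61S/R100E and -7.69 and -6.01 with wild type. Its residual SD was 0.718, so that its intervals reached beyond 2-fold either way and a change of that size was not detectable here. Without wild type 2 the changes against wild type were 0.53 in place of -0.31 for P61S/R100E and 0.65 in place of -0.19 for P61S.

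The 3 remaining genes mark mesenchymal and contractile cells. Pdgfra, the receptor that defines most fibroblasts, read 2.11, 2.11 and 2.30 on P61S arrays 1, 3 and 2, 2.36, 2.27 and 2.36 with P61S/R100E and 2.32 and 2.18 with wild type. Its change between P61S/R100E and P61S was 0.13 (interval -0.15 to 0.40), and the groups overlapped. Acta2, smooth muscle actin, read -3.80, -3.50 and -3.65 on P61S arrays 1, 3 and 2, -3.79, -3.87 and -3.76 with P61S/R100E and -3.87 and -3.24 with wild type. The P61S/R100E samples were below the 2 P61S samples (change -0.16, interval -0.62 to 0.31, limma adjusted p = 1.00), but P61S array 1 by itself lay among the P61S/R100E arrays. Against wild type the Acta2 change was -0.25 for P61S/R100E and -0.09 for P61S, and without wild type 2 these were 0.07 and 0.22. Tagln, transgelin, which binds actin in contractile cells, read -0.30, -0.33 and -0.37 on P61S arrays 1, 3 and 2, -0.28, -0.39 and -0.51 with P61S/R100E and -0.23 and -0.18 with wild type. Both wild type arrays were above all others, with changes of -0.19 for P61S/R100E (limma adjusted p = 0.859) and -0.14 for P61S (limma adjusted p = 1.00), neither past the test.

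Considered side by side, the 27 genes differed little between the treatments. For P61S/R100E versus P61S the median change was 0.04 (17 genes above 0 and 10 below), beside -0.04 over all tested probes. For P61S/R100E versus wild type it was -0.06 (9 above, 18 below), equal to the -0.06 over all probes. Without wild type 2 it was 0.03, beside 0.003 over all probes. When the arrays were centred on the median it was 0.02, as over all probes (0.02). For P61S versus wild type it was -0.09 (4 above, 23 below), beside -0.03 over all probes. With each array left out in turn, the median of the 27 genes there ranged from -0.17, without wild type 1, to -0.06. Over all tested probes, 9419 were above 0 and 14166 below for P61S/R100E versus P61S. Against wild type the counts were 8874 and 14711 for P61S/R100E, and 9987 and 13598 for P61S. These comparisons share arrays, so their values are not independent of one another. Groups of samples did not overlap for 4 genes higher (Col3a1, Col4a1, Vcan and Fn1; 14.8% of the 27, against 6.64% of all tested probes) and 2 lower (Thbs2 and Acta2; 7.41% against 11.6%) with P61S/R100E than with P61S. Against wild type, P61S/R100E had 0 such genes higher (5.86% of all probes) and 3 lower (Lamc1, Fbn1 and Tagln; 11.1% against 9.2%). P61S had 0 higher (10.1% of all probes) and 6 lower than wild type (Col4a1, Lamc1, Lum, Fn1, Tnc and Tagln; 22.2% against 11%). By role, the fibrillar collagens had medians of 0.15, 0.07 and -0.06 in the 3 comparisons, the proteoglycans 0.13, -0.01 and -0.06, and the matricellular proteins -0.10, -0.19 and -0.12. The median residual SD of the 27 genes was 0.146, beside 0.189 over all probes. These sets were not matched for signal: 10321 of all tested probes had a mean log2 signal under -3. Dim probes differed more between arrays, for example by 0.212 under -4 and 0.0844 over 0 for P61S 1 and P61S 2.

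**Figure D3:**
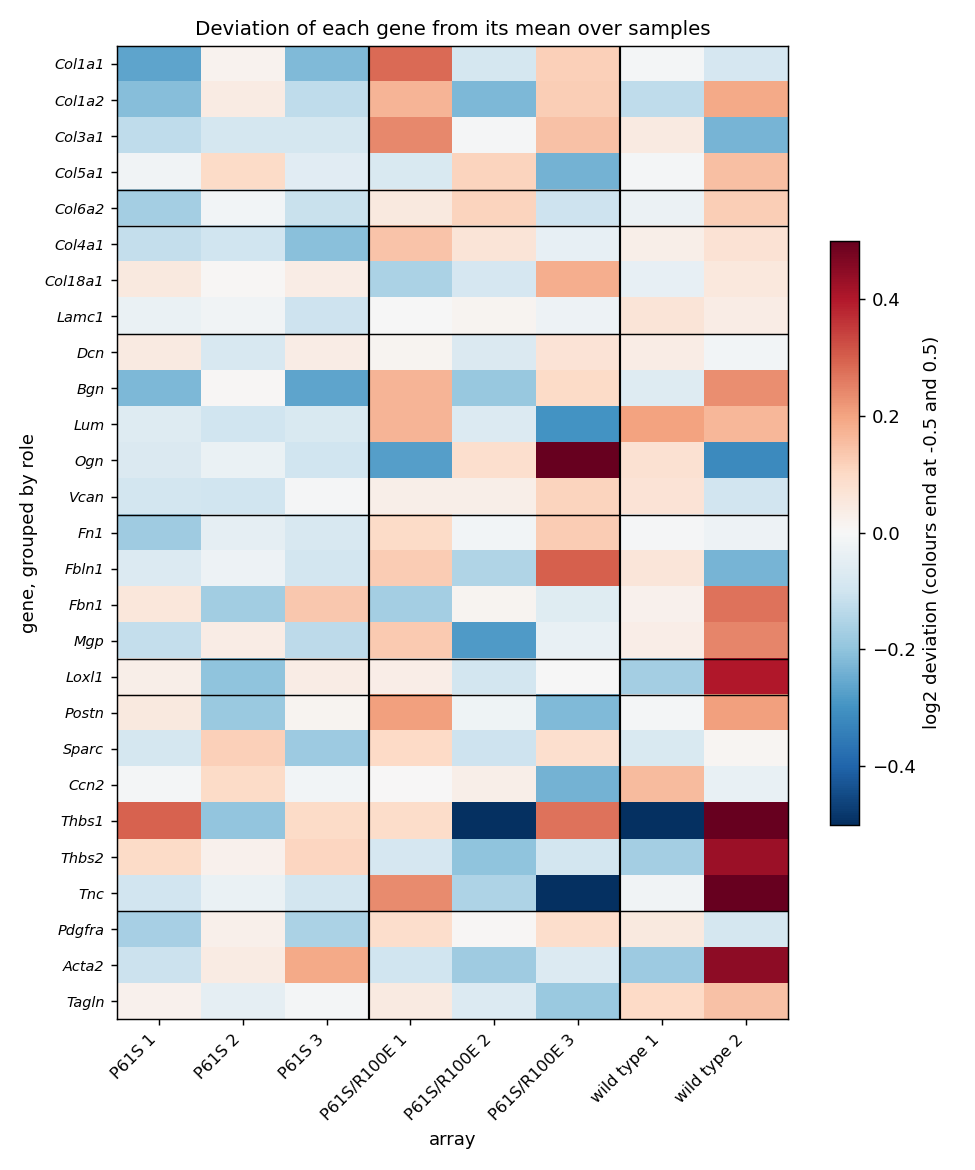
Deviation of each matrix gene from its mean over the 7 samples (log2, colours end at 0.5 either way), genes grouped by role and arrays by treatment. P61S arrays 1 and 3 have a similar pattern, Acta2 apart, and wild type 2 is the highest sample for 12 of the 27 genes.

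All 8 arrays lay on 1 slide, in 2 rows and 4 columns, and both wild type arrays were in column 4, so column and wild type cannot be told apart. Within row 1 the median change of the 27 genes was 0.13 for P61S/R100E versus P61S, 0.08 for P61S/R100E versus wild type and -0.07 for P61S versus wild type. Over all tested probes the row 1 medians were -0.02, 0.03 and 0.04. Within row 2 the medians were 0.01, -0.12 and -0.19 for the 27 genes, beside 0.003, -0.13 and -0.14 over all tested probes. Column 2 held 1 array each of P61S and P61S/R100E. The median there was -0.02 for the 27 genes, beside -0.11 over all tested probes. The other P61S arrays and the other P61S/R100E arrays lay in separate columns. Outside column 2, column and treatment therefore cannot be told apart for P61S/R100E versus P61S either. Col3a1 differed between P61S/R100E and P61S by 0.35 in row 1, 0.16 in row 2 and 0.08 in column 2, and Col4a1 by 0.25, 0.22 and 0.16. Thbs2 gave -0.14, -0.25 and -0.22. In that column, with 1 array a group, Col1a1 and Col1a2 differed by -0.11 and -0.27, beside 0.22 and 0.09 over all samples. A fit with the column as a covariate rests on the same pair of arrays and gives the same values.

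Some of the genes read higher on the arrays with the lower 75th percentile. The 4 arrays with the lowest 75th percentile were wild type 2, P61S/R100E 1, P61S 2 and P61S/R100E 3, and so came from all 3 groups. Col1a2, Bgn and Sparc were each higher on all 4 of these than on any of the others, by means of 0.30, 0.31 and 0.19, and Col1a1 and Mgp differed by 0.23 and 0.22 with overlap. Among the 318 tested probes with a mean log2 signal over 5 the median difference was 0.18, and 46.2% were higher on all 4 arrays. This share was 9.39% of the 1374 probes with a mean of 3 to 5 (median difference 0.07), 2.19% of the 4756 from 0 to 3 (0.01), 2.24% of the 6816 from -3 to 0 (0.03) and 8.69% of the 10321 under -3 (0.20). The median difference was thus as large among the dimmest probes, with a smaller share higher on all 4 arrays. For Dcn, Lum, Ogn and Vcan the differences were between -0.02 and -0.01. The part of this in the differences between treatments was not tested.

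**Figure D4:**
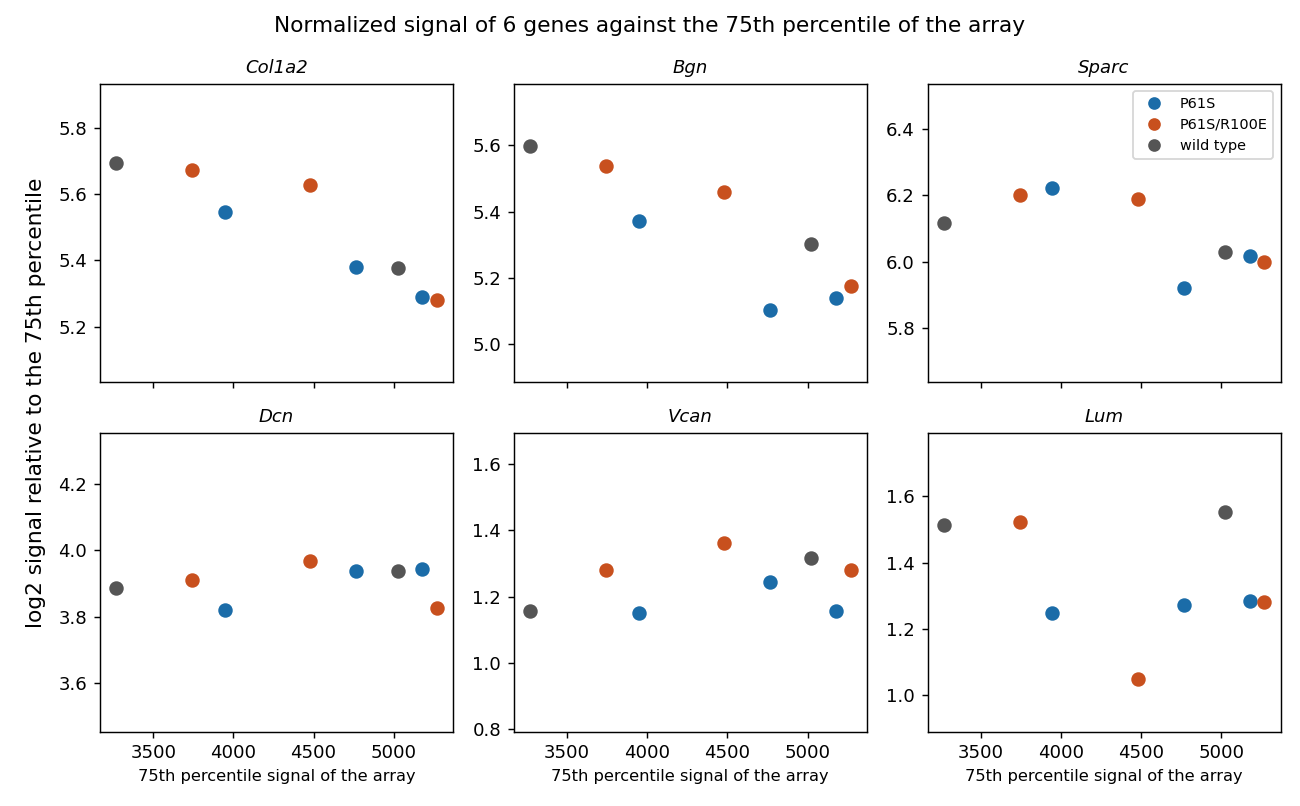
Normalized signal of 6 matrix genes (log2 relative to the 75th percentile) against the 75th percentile signal of the array (linear intensity), coloured by treatment. Col1a2, Bgn and Sparc are higher on the 4 arrays with the lowest percentile within each treatment, whereas Dcn, Vcan and Lum are not.

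A second probe was available for 6 of the genes. The second probes of Col1a1 and Vcan gave changes of 0.17 and 0.13 between P61S/R100E and P61S, of the same sign and about the same size as the brightest probes. Those of Col4a1, Lamc1 and Fn1 were opposite in sign, at -0.32, -0.08 and -0.62 against 0.19, 0.04 and 0.16, none past the test (limma adjusted p = 1.00 for each). The second Fn1 probe had 1 spot and read -0.91 on P61S 2, beside -2.32 and -2.38 on P61S 1 and 3. With P61S/R100E it read -2.17, -2.91 and -1.67, a range that holds P61S 1 and 3. The second Col4a1 probe was lowest on P61S/R100E 3, at -2.11. The dimmer probes of Col4a1, Lamc1, Bgn and Fn1 were above the median of the other samples on wild type 2 by 1.12, 1.13, 1.14 and 0.74, where the brightest probes of these genes differed by 0.08, 0.05, 0.26 and -0.02. The lack of overlap for Col4a1, Lamc1, Vcan and Fn1 therefore held for 1 of their 2 probes. With the mean of both probes, the changes between P61S/R100E and P61S were -0.06 for Col4a1 and -0.23 for Fn1. That mean weighs both probes alike, although the second probes were far dimmer. They read -2.11 to -0.39 for Col4a1 and -2.91 to -0.91 for Fn1, beside 3.82 to 4.17 and 4.22 to 4.53 for the brightest. Against wild type the dimmer probes gave larger changes, none past the test. For P61S/R100E and P61S these were -0.69 and -0.85 (Bgn), -0.64 and -0.33 (Col4a1), -0.47 and -0.39 (Lamc1), and -0.15 and 0.47 (Fn1).

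**Figure D5:**
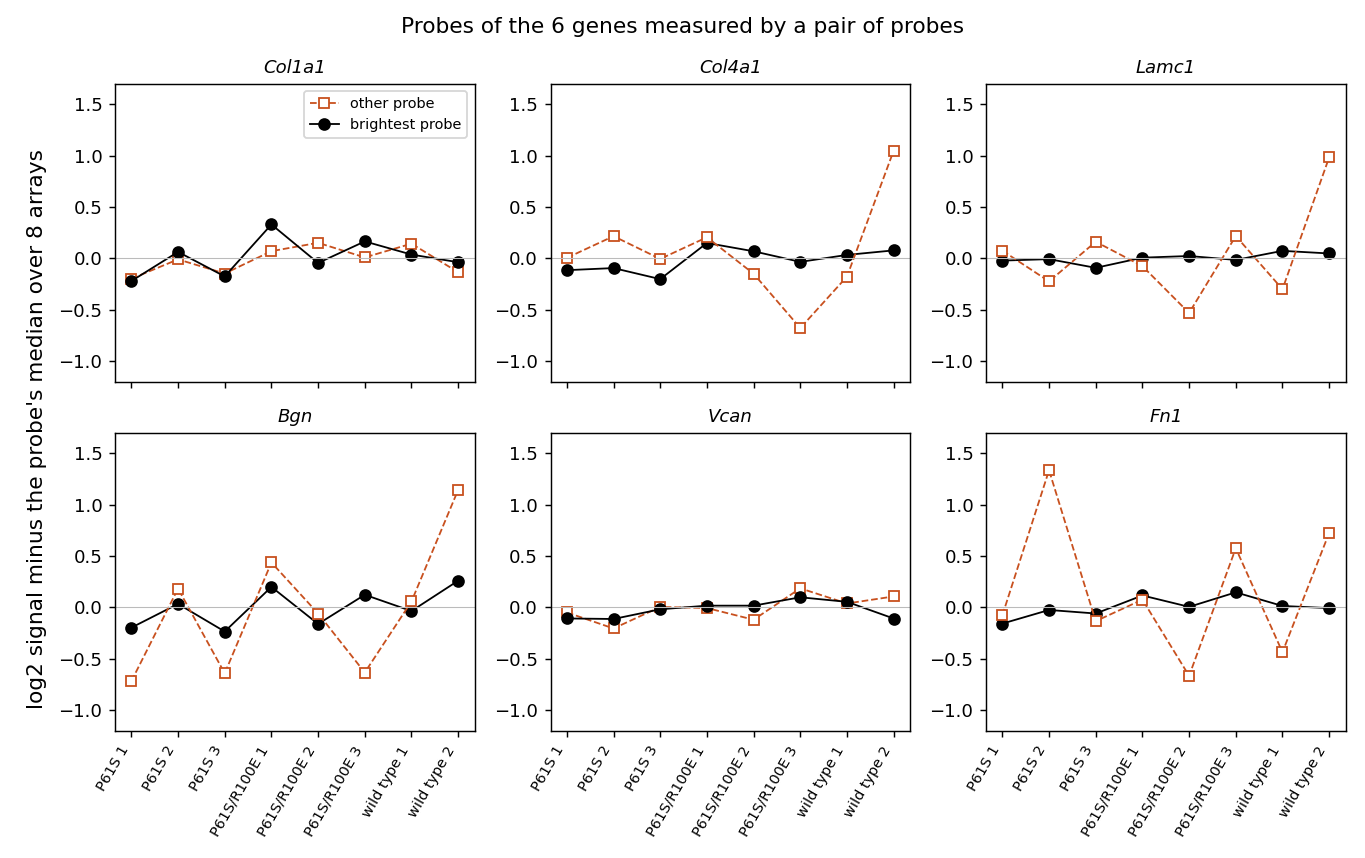
Signal of both probes of 6 matrix genes on each array, as log2 minus the median of that probe over the 8 arrays; filled points are the brightest probe and open squares the other. Both probes of Col1a1 and of Vcan stay within 0.5 of their medians, and the dimmer probes of Col4a1, Lamc1 and Bgn read about 1 higher on wild type 2 than their median.

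The enzymes, regulators and receptors that act on these matrix proteins were measured too. Of 26 genes for collagen processing and remodelling, such as prolyl hydroxylases, chaperones and metalloproteinases, 23 were measured, 0 passed the test, and the medians in the 3 comparisons were -0.02, 0.00 and -0.06, with changes from -0.61 to 0.38 over all 3. Of 20 TGF-beta ligands, receptors and regulators 18 were measured and 0 passed, with medians of -0.03, -0.06 and -0.02 and changes from -0.73 to 0.25. Ltbp4, which anchors latent TGF-beta in the matrix, was the only one at an unadjusted p under 0.05, with a change of -0.32 for P61S/R100E versus P61S (limma adjusted p = 1.00). Of 22 integrins and other matrix receptors 14 were measured, 0 passed, and the medians were 0.04, -0.07 and -0.09, with changes from -0.66 to 0.25. Other fibroblast markers, 20 of 23 measured, had medians of 0.07, 0.06 and -0.08 with 0 passing. Among them Igfbp6, an insulin-like growth factor binding protein of fibroblasts, differed by 0.30 between P61S/R100E and wild type (limma adjusted p = 0.859). Their summed linear signal, relative to the 75th percentile, ran from 78.6 to 82.4 with P61S, 76.6 to 96.3 with P61S/R100E and 83.6 to 85.0 with wild type, and that of the 27 matrix genes from 365 to 404, 373 to 440 and 395 to 423.

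Markers of other cells in the ganglion were measured beside these. Of 23 pan-neuronal markers 21 were measured, all well above background on all 8 arrays, and their summed signals overlapped between groups (294 to 345 with P61S, 302 to 327 with P61S/R100E and 309 to 337 with wild type). Schwann cell markers, 19 of 22 measured, summed to 119 to 129, 124 to 137 and 123 to 126, and satellite glia markers, all 14 measured, to 69.5 to 72.5, 67.6 to 75.3 and 68.6 to 75.04. Macrophage markers, 18 of 20 measured, summed to 15.7 to 17.2, 15.9 to 19.0 and 14.9 to 15.1, so that both wild type arrays were below all others. Pericyte and smooth muscle markers, the other cells that express Acta2 and Tagln, summed to 13.4 to 14.5, 13.1 to 14.8 and 13.2 to 14.2 over 14 measured genes. Endothelial markers summed to 0.453 to 0.582, 0.430 to 0.490 and 0.447 to 0.528 over 9 of 15, while the probes of Tek, Tie1, Cldn5 and Sox17 were not well above background on all arrays of any group. None of these markers passed an adjusted p of 0.05. The part of these cell types in the matrix gene values was not tested.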

How the data were processed

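The 8 scanner exports held spot intensities that, per the file headers, Feature Extraction 10.7.3.1 (protocol GE1_107_Sep09) had background-subtracted and detrended on array design 028279, built on rn4. Log2 values were computed here from the intensity and set relative to the log2 75th percentile of each array. The deposited matrix of log2 values covered 22018 probes, correlated with the scanner log2 values at 0.999 to 0.9999 and had medians of 9.82 to 10.33, with no centring between arrays. It served as an alternative. Per the labels' protocols, samples whose RNA integrity number was below 8.0 had been discarded.

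Replicate spots were averaged without scanner-marked outliers. Of 30367 probes (58717 spots that were not controls), 23585 were tested. Symbols came from the RefSeq table of GRCr8 by accession, and promoters from the same source. Groups were compared in 1 limma fit (limma 3.58.1 under R 4.3.3; 4 residual degrees of freedom and 2.10 from the prior), two-sided, adjusted over all tested probes. The planned fit used 8 separate arrays. Counting P61S arrays 1 and 3 once was decided after the data were seen, and the planned fit is kept as an alternative. The number of arrays limits the precision. The script was tested on simulated data.

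The name of the protein given to the cultures is not reported here. The members and lists were chosen with earlier results of these data known. Every array's value is given for 15 key genes where measured, for up to 4 further genes per direction and comparison with the smallest p among those whose groups did not overlap, and for the 3 genes with the largest residual SD. From other lists only genes with an unadjusted p under 0.05 and no overlap were named. Alternatives were normexp (offset 50) with quantile normalization, on the median signal since no mean signal column is used here, quantile normalization, median centring, the deposited values, 2 filters, kept outlier spots, a replicate block, slide row and column, 2-group fits, a variance trend, the mean of a gene's probes, an adjusted p of 0.10, and each array left out. The slide column was run only for P61S/R100E versus P61S, since column 4 holds only wild type. Tables were made in Python 3.11.15 with numpy 2.4.6 and pandas 2.3.3, and figures with matplotlib 3.10.9.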

Additional observations from a re-analysis of the deposited data

How the results depend on the processing

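No matrix gene was called in any comparison under the 23, 22 and 22 alternatives run for P61S/R100E versus P61S, P61S/R100E versus wild type and P61S versus wild type, and their smallest limma adjusted p among the matrix genes were 0.999, 0.1001 and 0.283. The medians moved by less than the spread between samples (SD 0.0738) under 22 of 22, 19 of 21 and 20 of 21 alternatives. The exceptions were P61S/R100E versus wild type with median centring (0.0229) and without wild type 2 (0.0278), and P61S versus wild type without wild type 1 (-0.168). Over all probes the medians there were 0.0163, 0.00317 and -0.0905. The SD of 0.0738 exceeds the median of 0.0370 for P61S/R100E versus P61S, so these counts do not show a stable sign. With the slide column as a covariate that median was -0.0206, of opposite sign, and it counts among the 22. With each array left out in turn, the medians ranged from 0.0173 to 0.0912, from -0.103 to 0.0278 and from -0.168 to -0.0643. Same-numbered arrays of 2 groups correlated from -0.198 to 0.167 in their deviations over 7 pairs. These values do not show pairing by number. They cannot exclude it, since the deviations of the 2 wild type arrays mirror each other. With the replicate block 0 matrix genes were called, the medians were 0.0410, -0.0424 and -0.0933, and 502, 663 and 287 probes had an unadjusted p under 0.05, and not every array correlated best with its own number. Fitted as 8 separate arrays, 0 probes passed, and 946, 1188 and 489 had an unadjusted p under 0.05. Over all probes, quantile normalization and median centring each called 1 probe in both comparisons with wild type. Where an array was left out so that a group held 1 sample, that sample was assumed to vary like the others. The cause of these shifts was not tested.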

Other observations

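Macrophage and immune markers had the largest median difference between P61S/R100E and wild type among the lists for other cell types. Over the 18 measured, the median change was 0.09 for P61S/R100E versus P61S, 0.20 for P61S/R100E versus wild type and 0.07 for P61S versus wild type, and 8, against 5.86% of all tested probes, had all P61S/R100E samples above both wild type samples. Trem2, a lipid-sensing receptor of macrophages, differed by 0.46 between P61S/R100E and P61S (limma adjusted p = 1.00) and by 0.73 between P61S/R100E and wild type (limma adjusted p = 0.859). None of these markers passed an adjusted p of 0.05. By array, the median deviation of the list was 0.20 on P61S/R100E 3 and between -0.14 and 0.03 on the other 7.

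Within the P61S group, array 2 differed from arrays 1 and 3 in some lists. The median deviation of 17 cell cycle genes was -0.20 on P61S 2, beside 0.11 and 0.10 on P61S 1 and 3, and that of 9 endothelial markers was 0.36, beside -0.17 and -0.07. For 14 pericyte and smooth muscle markers the values were 0.19, -0.02 and -0.05. The endothelial markers were dim, with a summed signal of 0.453 to 0.582 with P61S, and 6 were well above background on all 8 arrays. All tested probes under -3 read a median of 0.20 higher on the 4 arrays with the lowest 75th percentile, P61S 2 among them. The part of this in the endothelial values was not tested. Kcnj8, a potassium channel subunit of pericytes, gave -0.33 for P61S/R100E versus P61S (limma adjusted p = 1.00) and -0.31 for P61S/R100E versus wild type (limma adjusted p = 0.859).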
